A study of Mus musculus with 18 samples.

Results

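The interferon-induced GTPases Gbp2, Gbp3, Gbp5, Gbp7, Gbp9, Igtp, Irgm1, Irgm2, Iigp1 and Tgtp1 are 10 of the 54232 genes counted in the lacrimal gland (LG), and they were chosen by name from their families. Bulk RNA sequencing covered the LGs of 18 males, with 1 whole gland of 1 mouse in each library and 3 mice in each of 6 groups. BALB/cJ mice (BALB/c) served as controls and were aged 2, 4 or 6 months (2M, 4M and 6M). NOD.B10Sn-H2b/J mice (NOD.H-2b), a spontaneous model of Sjögren's disease that carries the NOD background with another H2 haplotype, were taken at the same ages. The labels name no treatment, so strain and age were the differences between groups, and strain includes every other genetic difference between BALB/c and NOD. The libraries held between 49480781 and 103936830 counts, and all 10 genes were detected in every mouse.

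Guanylate-binding proteins (Gbp) and immunity-related GTPases (Irgm1, Irgm2, Igtp, Iigp1 and Tgtp1) are made by many cell types after exposure to interferon gamma and, more weakly for several of them, to type I interferons. They assemble on the membranes around intracellular bacteria and parasites, break up these vacuoles and help cytosolic sensors find the contents. Interferon gamma acts through the kinases Jak1 and Jak2, and many of its target genes carry the GAS motif, while interferon regulatory factors such as Irf1 bind the ISRE motif. Irgm1, Irgm2 and Igtp are regulators that guard the cell's own membranes, and Iigp1 and Tgtp1 are effectors that load onto vacuoles.

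Gbp5, Gbp7, Gbp3 and Gbp2 lie in 1 cluster on the plus strand of chr3 (GRCm38, chr3:142493978-142638008), with Gbp2b between Gbp3 and Gbp2. Gbp9 lies on the minus strand at chr5:105077630-105139539, where its exons overlap those of Gbp4 and Gbp8 on the same strand. Igtp (chr11:58199556-58207591) and Irgm2 (chr11:58199618-58222782) share exonic bases on the plus strand. Irgm1 (chr11:48861968-48871683) and Tgtp1 (chr11:48985327-48994172) lie on the minus strand of the same chromosome, and Iigp1 lies apart from these clusters. The sequences of several members are partly repeated elsewhere in the annotated transcripts. Of all windows of 75 bases, the read length, in Tgtp1 transcripts, 77.2% also occurred in another gene, nearly all of them in its neighbour copy Tgtp2. The share was 11.3% for Gbp7, 7.8% for Igtp, 4.78% for Irgm2, 3.61% for Gbp9, at most 2.06% for Gbp3, Gbp2 and Gbp5, and 0 for Irgm1 and Iigp1. Counts of Tgtp1 are therefore uncertain, and differences in gene copies or sequence between BALB/c, NOD and the reference strain were not tested.

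The promoters are shown because the members moved together in the comparisons that follow. RefSeq windows of GRCm38.p6, each 250 bases before to 50 after an annotated start, were matched for 8 of the 10 members (9 windows). The letters TTCNNNGAA (GAS, the same on both strands) were found in 5 of these 8 genes, and GAAANNGAAA (the ISRE core, searched on both strands) in all 8. Of all 32851 RefSeq windows, 8.3% held the GAS letters, 3.44% the ISRE letters and 0.454% both. Stretches upstream of 7 members are written here in lower case on the strand of the gene, with both motifs in capitals. They lie at chr11:58199501-58199541 (+, Igtp), chr11:58214892-58214932 (+, Irgm2), chr11:48992304-48992344 (-, Tgtp1), chr11:48871425-48871460 (-, Irgm1), chr3:142620594-142620623 (+, Gbp2), chr3:142559989-142560024 (+, Gbp3) and chr3:142530220-142530302 (+, Gbp7).
Igtp: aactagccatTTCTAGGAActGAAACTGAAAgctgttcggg
Irgm2: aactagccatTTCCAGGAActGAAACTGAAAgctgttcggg
Tgtp1: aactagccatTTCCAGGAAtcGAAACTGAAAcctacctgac
Irgm1: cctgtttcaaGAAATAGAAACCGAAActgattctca
Gbp2: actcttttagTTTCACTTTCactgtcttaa
Gbp3: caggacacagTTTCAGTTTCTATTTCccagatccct
Gbp7: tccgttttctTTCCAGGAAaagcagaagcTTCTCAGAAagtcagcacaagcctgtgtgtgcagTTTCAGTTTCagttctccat
Igtp, Irgm2 and Tgtp1 had a GAS match followed after 2 bases by an ISRE match, and the 41 bases of Igtp and Irgm2 differed at 1 base (T14C, counted from 1 at the first base printed, Igtp first). Those of Igtp and Tgtp1 differed at 10 bases. In Irgm1 and Gbp3, 2 ISRE matches overlapped each other, and in these genes and in Gbp2 no GAS match was found in the window. These are letters of the reference genome and not of either strain, and a match is not a measured binding site.

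The strains were compared at each age to ask how the LG of the Sjögren model differs from that of the control strain. All 10 GTPases were upregulated in NOD.H-2b at every age, and in no gene did the 3 NOD.H-2b mice overlap the 3 BALB/c mice of their age. The share of all genes without such overlap was not counted, so the separation is a description only. A gene was called when edgeR's quasi-likelihood test gave a false discovery rate (FDR, the p adjusted over all genes tested by Benjamini-Hochberg) under 0.05 and the fold change was at least 2. By that rule, 10 of 10 members were higher at 2M, where 12% of 17200 genes tested were. The count was 10 of 10 at 4M (15.6% of 17722 genes) and 10 of 10 at 6M (18.8% of 17750 genes). The 10 genes had a median log2 fold change of 2.64 at 2M, 2.97 at 4M and 3.91 at 6M, while that of all genes tested was 0.00986, 0.000337 and -0.00414. The 3 ages used different mice.

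**Figure D1:**
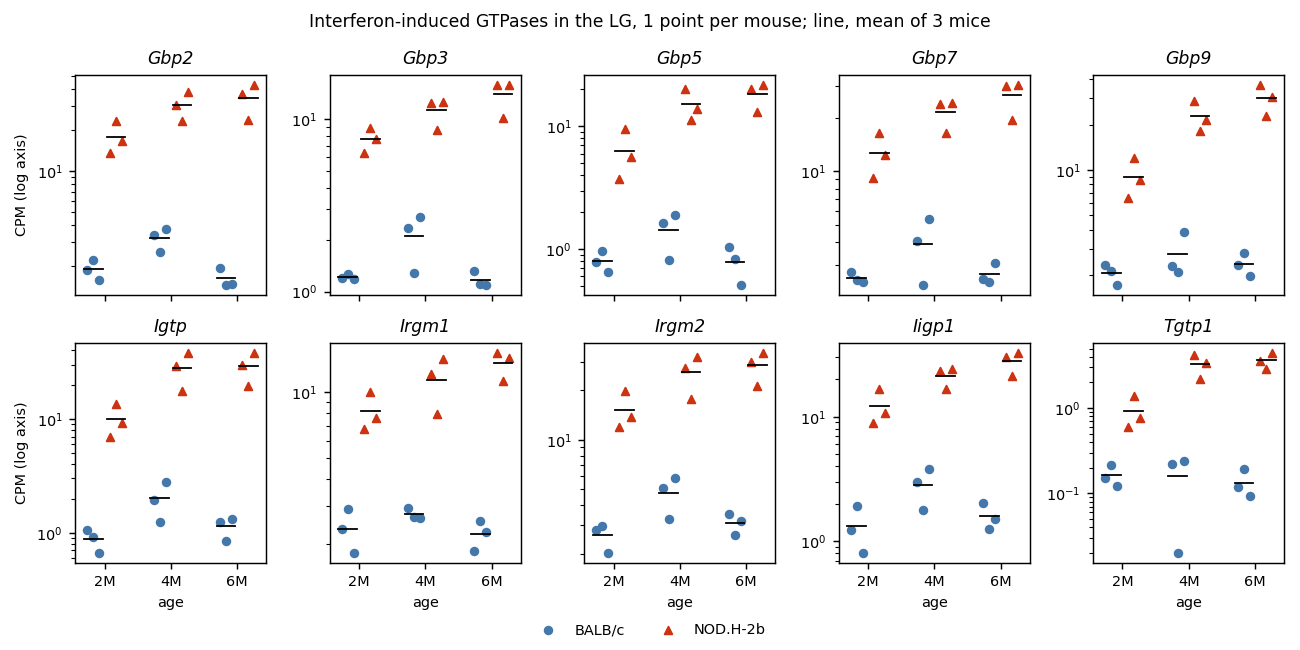
Scaled counts (CPM, log axis) of the 10 GTPases against age, with 1 point per mouse (circles BALB/c, triangles NOD.H-2b) and lines at the mean of 3 mice. In every panel and at every age, the triangles sit above the circles.

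Of the regulators, Igtp differed most between the strains. Igtp, which guards membranes of the endoplasmic reticulum and lipid droplets, had 1.05, 0.916 and 0.67 CPM (reads scaled by TMM to a common library size) in the BALB/c mice at 2M, 1.95, 1.24 and 2.82 at 4M, and 1.25, 0.852 and 1.31 at 6M. Its level in NOD.H-2b was 6.93, 13.7 and 9.26 CPM at 2M, 29.4, 17.8 and 37.8 at 4M, and 29.7, 19.7 and 38.4 at 6M. The lowest NOD.H-2b mouse of 2M was thus above every BALB/c mouse of any age. The difference was 11.7-fold at 2M (95% CI 7.02 to 19.5, edgeR adjusted p = 0.000116), 14.0-fold at 4M (6.57 to 29.7, 0.00142) and 26.0-fold at 6M (16.2 to 41.9, 1.03e-05).

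Irgm1, which has a part in autophagy and in the upkeep of mitochondria, moved least. BALB/c mice had 2.35, 2.91 and 1.83 CPM at 2M, 2.95, 2.66 and 2.65 at 4M, and 1.86, 2.56 and 2.29 at 6M. NOD.H-2b mice had 6.8, 10.1 and 7.66 CPM at 2M, 12.1, 7.93 and 14.3 at 4M, and 15.2, 11.3 and 14.4 at 6M. The strains were still fully apart, with a fold of 3.57 at 2M (95% CI 2.62 to 4.86), 4.16 at 4M (3.01 to 5.75) and 6.32 at 6M (4.92 to 8.11), and edgeR adjusted p-values of 7.59e-05, 7.43e-05 and 9.48e-07. Irgm2, a further regulator, which also restrains the noncanonical inflammasome, had 2.83, 2.98 and 2.05 CPM in BALB/c at 2M, 5.11, 3.29 and 5.85 at 4M, and 3.51, 2.62 and 3.18 at 6M. In NOD.H-2b it had 12.0, 19.8 and 13.8 CPM at 2M, 27.3, 17.8 and 32.2 at 4M, and 29.9, 21.4 and 34.1 at 6M. Irgm2 was among the members that differed less between the strains, 6.00-fold at 2M, 5.42-fold at 4M and 9.305-fold at 6M.

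The effectors covered a wide range of levels. Iigp1 had 1.22, 1.92 and 0.811 CPM in BALB/c at 2M, 2.97, 1.77 and 3.82 at 4M, and 2.02, 1.26 and 1.52 at 6M. NOD.H-2b mice had 8.99, 16.7 and 10.7 CPM of it at 2M, 23.4, 16.6 and 24.2 at 4M, and 30.0, 21.1 and 32.9 at 6M. The difference was 9.48-fold, 7.47-fold and 17.45-fold at the 3 ages. Tgtp1 was the least abundant member. It had 0.153, 0.215 and 0.123 CPM in BALB/c at 2M, 0.221, 0.0203 and 0.239 at 4M, and 0.118, 0.192 and 0.0935 at 6M, and the lowest of these values was a single read. In NOD.H-2b it had 0.608, 1.39 and 0.77 CPM at 2M, 4.15, 2.21 and 3.4 at 4M, and 3.58, 2.85 and 4.49 at 6M. Tgtp1 went from 5.74-fold at 2M (95% CI 3.00 to 11.0) to 19.4-fold at 4M (8.45 to 44.4) and 27.7-fold at 6M (17.2 to 44.7), with edgeR adjusted p-values of 0.000661, 0.000339 and 1.31e-06. Its copy Tgtp2 had no read in any BALB/c mouse and at most 12 in a NOD.H-2b mouse, and reads common to both copies cannot be assigned to either.

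Among the guanylate-binding proteins, Gbp2, which coats vacuoles and bacteria, was among the 2 most abundant members per length in every group. Its BALB/c values were 1.85, 2.19 and 1.57 CPM at 2M, 3.35, 2.5 and 3.74 at 4M, and 1.93, 1.45 and 1.45 at 6M. Its NOD.H-2b values were 13.6, 23.3 and 16.7 CPM at 2M, 30.8, 23.6 and 38.2 at 4M, and 36.8, 23.7 and 43.5 at 6M. The strains differed by nearly the same fold at 2M and 4M, 9.84-fold (95% CI 6.53 to 14.8) and 9.63-fold (6.70 to 13.8), and by 21.5-fold at 6M (14.1 to 32.7), with edgeR adjusted p-values of 7.8e-05, 4.04e-05 and 6.17e-06.

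Gbp5, which promotes assembly of the NLRP3 inflammasome, had 0.784, 0.969 and 0.653 CPM in BALB/c at 2M, 1.62, 0.813 and 1.88 at 4M, and 1.03, 0.831 and 0.514 at 6M. NOD.H-2b mice had 3.73, 9.59 and 5.66 CPM of Gbp5 at 2M, 20.1, 11.2 and 13.8 at 4M, and 20.1, 13.1 and 21.9 at 6M. Its folds of 8.13, 10.4 and 22.7 were close to those of Gbp2, although its spread among the NOD.H-2b mice of 2M, 2.57 times from lowest to highest, was the widest of the 10 genes there. Gbp3 had 1.2, 1.26 and 1.18 CPM in BALB/c at 2M, 2.32, 1.28 and 2.7 at 4M, and 1.31, 1.11 and 1.1 at 6M. In NOD.H-2b the Gbp3 values were 6.34, 8.87 and 7.61 CPM at 2M, 12.3, 8.65 and 12.6 at 4M, and 15.8, 10.2 and 15.8 at 6M. Gbp3 was the tightest member among the BALB/c mice of 2M, where its highest value was 1.06 times its lowest, and it differed 6.45-fold, 5.30-fold and 12.0-fold between the strains.

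Gbp7, which has a part in the delivery of oxidase and autophagy components to vacuoles, had 2.71, 2.44 and 2.4 CPM in BALB/c at 2M, 4.05, 2.32 and 5.37 at 4M, and 2.49, 2.41 and 3.04 at 6M. In NOD.H-2b it had 9.14, 16.5 and 12.4 CPM at 2M, 23.7, 16.4 and 24.2 at 4M, and 30.0, 19.3 and 30.6 at 6M. The folds of Gbp7 were 5.185, 5.46 and 10.4. Gbp9, a member of the chromosome 5 cluster, had 2.33, 2.12 and 1.73 CPM in BALB/c at 2M, 2.29, 2.09 and 3.88 at 4M, and 2.33, 2.81 and 1.96 at 6M. NOD.H-2b values of Gbp9 were 6.51, 12.0 and 8.54 CPM at 2M, 28.8, 18.1 and 21.5 at 4M, and 37.0, 23.0 and 30.6 at 6M. Gbp9 stood further apart at each later age, as did Tgtp1, Irgm1, Gbp5, Gbp7 and Igtp, with folds of 4.525 at 2M (95% CI 3.06 to 6.69), 8.25 at 4M (5.01 to 13.6) and 13.0 at 6M (9.504 to 17.84), and edgeR adjusted p-values of 0.000232, 0.000388 and 1.24e-06.

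**Figure D2:**
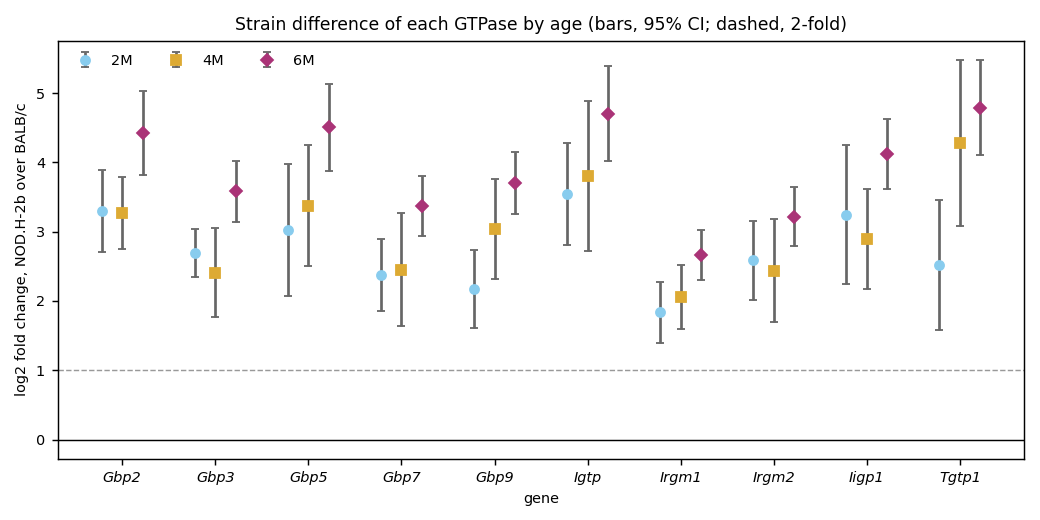
Log2 fold change of NOD.H-2b over BALB/c for each GTPase at 2M, 4M and 6M, with 95% confidence intervals from the fit of 3 mice against 3 and a dashed line at 2-fold. Every interval lies above the dashed line, and the 6M point is the highest of each gene, from 2.66 for Irgm1 to 4.79 for Tgtp1.

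The strain differences at 2M and 6M were then set against each other in 1 fit of all 18 mice, to ask whether they widened with age. The log2 difference was larger at 6M for all 10 GTPases, with a median of 1.08 against -0.0305 over all genes tested, but only 2 of the 10 passed an FDR of 0.05. Counted with its sign, a log2 difference higher at 6M than at 2M was called for 7.04% of 19117 genes. Gbp9 gained 1.54 ± 0.41 (SE) on the log2 scale (edgeR adjusted p = 0.0237) and Tgtp1 gained 2.28 ± 0.70 (edgeR adjusted p = 0.0352). The other 8 genes gained between 0.64 (Irgm2, edgeR adjusted p = 0.296) and 1.5 (Gbp5, edgeR adjusted p = 0.0995), and 7 of the 10 had an unadjusted edgeR p under 0.05. Neither call held under every omission of a single mouse. Without BALB/c replicate 1 or 2 of 2M, NOD.H-2b replicate 1 or 3 of 2M, BALB/c replicate 1 or 3 of 6M, or NOD.H-2b replicate 1 of 6M, each left out alone, 0 members passed, and 5 passed without NOD.H-2b replicate 2 of 2M or of 6M. Tgtp1 was lost and Gbp9 kept without NOD.H-2b replicate 3 of 6M. DESeq2's Wald test called 7 of the 10.

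Ages were also compared within each strain, and the 4M mice enter both comparisons of their strain. Between 2M and 4M in NOD.H-2b, the log2 fold changes of all 10 GTPases were above 0 (median 0.80), and 2 of 10 were called higher, where 5.97% of 17763 genes were. These were Gbp9 (2.525-fold, 95% CI 1.57 to 4.06, edgeR adjusted p = 0.0305) and Tgtp1 (3.51-fold, 2.00 to 6.18, edgeR adjusted p = 0.0169). The lowest NOD.H-2b mouse of 4M was above the highest of 2M for these 2 genes and also for Gbp2, Gbp5 and Igtp, which did not pass the FDR. How many of all genes were apart in this way was not counted. The number called rested on single mice, with 6 members without NOD.H-2b replicate 2 of 2M, 0 without replicate 3 of 2M, and 1 without replicate 1 or replicate 3 of 4M. Between 4M and 6M, NOD.H-2b mice overlapped in all 10 genes. The median log2 fold change was 0.285, 0 members were called by edgeR, 0 had an unadjusted edgeR p under 0.05, and DESeq2's Wald test called 0. Only 0.00555% of 18026 genes were called in either direction in that comparison.

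In BALB/c, the log2 fold changes from 2M to 4M were also all above 0, with a median of 0.79. Only Igtp was called (1 of 10), 2.30-fold higher (95% CI 1.46 to 3.62, edgeR adjusted p = 0.024), where 2.07% of 16639 genes were called higher. Gbp2 (1.72-fold, edgeR adjusted p = 0.0237) and Irgm2 (1.83-fold, edgeR adjusted p = 0.0296) passed the FDR at less than 2-fold. Without BALB/c replicate 3 of 2M, or replicate 1 or 3 of 4M, 0 members were called, and without replicate 2 of 4M 5 were. From 4M to 6M all 9 members tested had a log2 fold change below 0 (median -0.834), and Tgtp1 did not pass the filter on low counts. None was called in either direction by edgeR, 6 of the 9 had an unadjusted edgeR p under 0.05 (1 of 9 without BALB/c replicate 3 of 4M and 2 of 10 without replicate 2 of 6M), DESeq2's Wald test called 0 of 10 lower, and 0.0361% of 16622 genes were called in either direction.

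Levels of different genes were compared per length, as CPM per kilobase of exon. In NOD.H-2b at 6M, Igtp (14.5 ± 4.6 CPM per kilobase, SD, n = 3 mice) and Gbp2 (13.8 ± 4.0) were at the top and overlapped each other. Irgm2 followed at 7.72 ± 1.75 and did not overlap Gbp2. Gbp9 (5.83), Iigp1 (4.81), Gbp7 (4.75), Gbp3 (4.26), Gbp5 (2.77) and Irgm1 (2.35) came next, each overlapping its neighbour in this order. Tgtp1 was lowest at 1.14 ± 0.26, below every mouse's value of Irgm1. Tgtp1 was lowest and Gbp5 next to it in all 3 BALB/c groups. At 2M in BALB/c, Gbp2 (0.744 ± 0.124) and Irgm2 (0.709 ± 0.136) were at the top, and Igtp was at 0.435 ± 0.095.

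**Figure D3:**
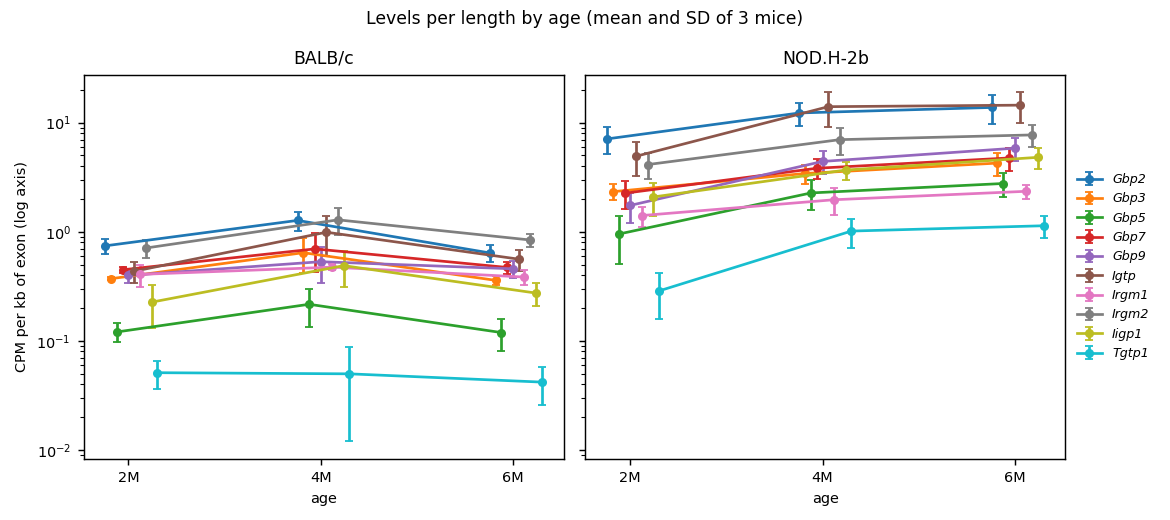
CPM per kilobase of exon (log axis) of each GTPase against age in BALB/c (left) and NOD.H-2b (right), as mean and SD of 3 mice. Igtp and Gbp2 are the top pair in NOD.H-2b at 4M and 6M, and Tgtp1 is lowest in every group.

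In 4 of the 6 groups, 1 mouse was lowest in all 10 genes. In NOD.H-2b at 2M, replicate 1 was lowest and replicate 2 highest in 10 of 10 genes. Replicate 2 was lowest in 10 of 10 genes in NOD.H-2b at 4M and again at 6M, and replicate 3 was lowest in 10 of 10 in BALB/c at 2M. In BALB/c at 4M, replicate 2 was lowest in 9 and replicate 3 in 1. The BALB/c mice of 6M had no common order, with replicates 1, 2 and 3 lowest in 1, 5 and 4 genes. The sum over the 10 genes ran from 74.7 to 131.9 CPM in the NOD.H-2b mice of 2M, from 140.3 to 222.3 at 4M and from 165.6 to 266.6 at 6M, against 13.0 to 32.9 in the 9 BALB/c mice. Over the 18 mice, the deviations of log2 CPM from the group means had a Pearson r between 0.516 and 0.971 for the 45 pairs of members (median 0.792). The deviations of a gene share the library and its scaling, and the values are a description of these mice.

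Among the genes whose deviations were most like the mean of the 10 GTPases, of the 13569 genes averaging 0 or more on the log2 CPM scale, were Tap1 (r = 0.943), Gpr141 (0.908), Gbp4 (0.899) and Wisp2 (0.891). Tap1 carries peptides to MHC class I molecules, Gbp4 is a neighbour of Gbp9 with overlapping exons, Gpr141 is an orphan receptor and Wisp2 is a secreted matrix protein. The median r over all genes ranked was -0.0295 and their 97.5th percentile was 0.677. Irf1 had an r of 0.763 and Ifng, with few reads, 0.563.

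The ligand was near the limit of detection. Ifng, which encodes interferon gamma, had 0 reads in the 3 BALB/c mice of 2M, and 0, 1 and 0 at 4M and 1, 0 and 0 at 6M. In NOD.H-2b it had 2, 7 and 0 reads at 2M, 21, 6 and 9 at 4M, and 28, 10 and 28 at 6M. The strains overlapped at 2M and did not at 4M and 6M, but Ifng passed the filter on low counts at 6M only, where it was called higher (edgeR adjusted p = 0.000343). It passed that filter through the NOD.H-2b mice alone, which largely sets the direction of the call. Irf1, whose 2M range was 10.7 to 13.42 CPM in BALB/c against 19.6 to 31.2 in the NOD.H-2b mice, was 2.21-fold, 2.47-fold and 3.34-fold higher (edgeR adjusted p = 0.00406, 6.18e-06 and 5.67e-05). Of the interferon gamma ligand, receptor, kinase, factor and inhibitor genes listed, 7 of 17 tested were called higher at 2M, 9 of 17 at 4M and 13 of 18 at 6M, and 0 were lower. Over all genes, 12%, 15.6% and 18.8% were called higher and 3.76%, 4.72% and 6.03% lower at the 3 ages. With so few genes listed, finding 0 lower says little. Nlrc5 and Ciita, the transactivators of MHC class I and class II genes, changed most on average among the genes of this list called at every age. They differed 19.95-fold and 4.55-fold at 2M and 41.5-fold and 21.1-fold at 6M. At 6M the highest log2 fold change of the list, 5.58, belonged to another gene.

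Of 16 genes for membrane targeting and autophagy, which help place the GTPases on membranes, 1 was called higher and 1 lower at each age. Over all genes, 3.76%, 4.72% and 6.03% were called lower in NOD.H-2b at the 3 ages, beside the shares called higher given with the members. The higher one was Trim21, a cytosolic antibody receptor and ubiquitin ligase (2.16-fold at 2M, 2.40-fold at 4M and 2.735-fold at 6M). The lower one was Map1lc3a, which encodes a protein of the LC3 family that marks autophagosomes, with a mean of 33.9 ± 2.1 CPM (SD, n = 3 mice) in BALB/c against 16.3 ± 1.7 in NOD.H-2b at 2M, and 36.7 ± 0.5 and 12.7 ± 1.5 at 6M. The list's median log2 fold change was -0.0121, -0.128 and -0.303 at the 3 ages. In the fit of all 18 mice, the log2 fold change, counted with its sign, was lower at 6M than at 2M for 7 of the 16 genes by an FDR under 0.05. It was lower for 9.09% of all genes, and it was higher for 0 of the 16. A lower value can be a difference that widened below 0. Of 9 genes for the cytosolic sensing of lipopolysaccharide and the inflammasome, which the GTPases feed, 8 were called higher at each age. Aim2, a sensor of cytosolic DNA, was 8.12-fold higher at 2M and 24.4-fold at 6M, and Casp4, the mouse caspase that binds lipopolysaccharide, 5.08-fold and 8.40-fold.

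Other interferon targets were higher alongside the 10 GTPases. Of 20 other interferon gamma targets tested, 18, 19 and 19 were called higher at 2M, 4M and 6M, with medians of 2.4, 2.43 and 3.19 on the log2 scale. Cxcl9 and Cxcl10, which attract activated T cells, differed most, by 6.30 ± 0.38 and 6.03 ± 0.34 on the log2 scale (SE) at 6M. Of 20 genes known best as targets of type I interferon, 19 were called higher at each age, with medians of 2.81, 2.3 and 2.54. The share of all genes called higher in NOD.H-2b was 12%, 15.6% and 18.8% at the 3 ages. Zbp1, a sensor of Z-form nucleic acids, differed 25.5-fold at 2M and 33.4-fold at 6M, and Oas3, an activator of RNase L, 31.4-fold and 26.4-fold. By an FDR under 0.05, the signed strain difference was higher at 6M than at 2M for 0 of these 20 genes and lower for 1. Of 21 other interferon gamma targets it was higher for 5 and lower for 0, with changes from -2.92 to 1.59. Over all genes it was higher for 7.04% and lower for 9.09%. Whether the lists differ from each other was not tested, and several genes answer to both interferons.

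**Figure D4:**
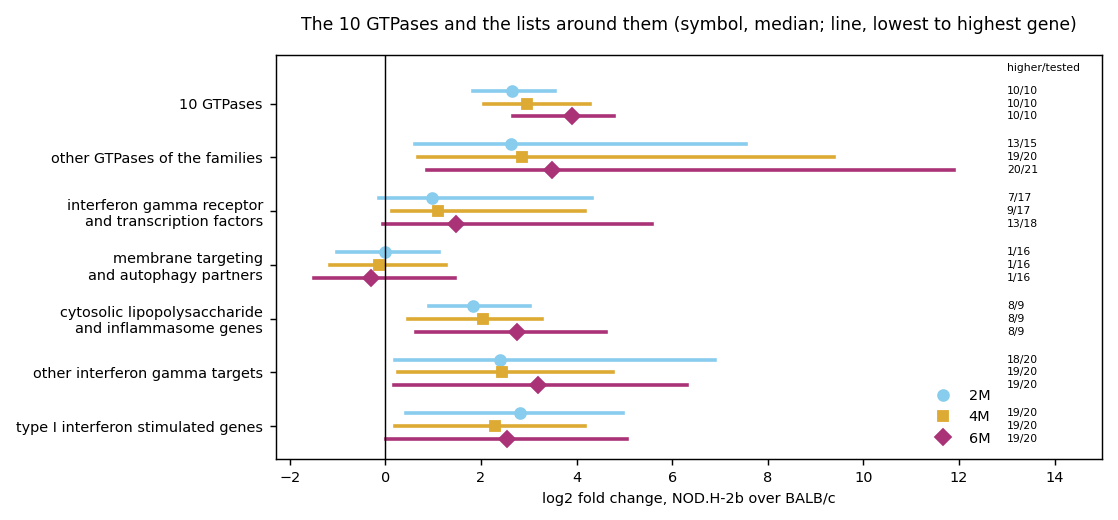
Log2 fold change of NOD.H-2b over BALB/c for the 10 GTPases and 6 lists around them, with the median (symbol), the lowest and highest gene (line) and the number called higher of those tested, at 2M, 4M and 6M. The GTPases lie at medians of 2.64 to 3.91, and the genes for membrane targeting and autophagy lie around 0.

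The remaining GTPases of these families went the same way. Of 23 further genes in the table, 13 of 15 tested were called higher at 2M, 19 of 20 at 4M and 20 of 21 at 6M, and 0 were lower. The shares over all genes were 12%, 15.6% and 18.8% higher and 3.76%, 4.72% and 6.03% lower. Among the BALB/c mice of 2M and 4M, 14 of the 23 GTPases passed the filter on low counts. Some of those tested at 4M and 6M thus passed through NOD.H-2b alone, which largely sets the direction of a call. Irgq, a distant relative, was higher by less than 2-fold at each age, 1.54-fold at 2M, 1.61-fold at 4M and 1.82-fold at 6M. Gbp2b, the neighbour of Gbp2, overlapped between the strains at 2M (0.953 to 4.11 CPM in NOD.H-2b and 1.06 to 1.83 in BALB/c) and was called at 4M and 6M. Of the chromosome 5 cluster, Gbp4 was 3.49-fold higher at 2M and 11.3-fold at 6M, Gbp8 14.9-fold and 74.1-fold, and Gbp6 37.8-fold and 62.4-fold. Gbp6 shares 67.3% of its windows with other genes, so its counts are uncertain. Mx1 and Mx2, targets of type I interferon, were 22.7-fold and 6.19-fold higher at 2M and 15.5-fold and 3.18-fold at 6M. Gm1966, annotated in the reference as a pseudogene of the very large inducible GTPases, had 0.0107 to 0.0639 CPM in BALB/c against 78.6 to 138 in NOD.H-2b at 6M. A difference between the strains in copies of such genes would appear in the same way, and it was not tested.

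Summed markers of T cells, B cells, natural killer cells and macrophages were higher in NOD.H-2b, as the GTPases were. Not every macrophage marker was higher. Of these 10 genes, 8, 7 and 8 were called higher at 2M, 4M and 6M, with lowest log2 fold changes of 0.548, 0.0247 and -0.0254. In bulk tissue, more cells of a type and more RNA per cell cannot be told apart. The 10 T cell markers summed to 0.353 to 6.26 CPM in the 9 BALB/c mice and to 9.42 to 34.3, 72.0 to 127.7 and 80.8 to 111 CPM in the NOD.H-2b groups of 2M, 4M and 6M, and 9 of 9, 10 of 10 and 10 of 10 tested were called higher. Among the BALB/c mice of 2M and 4M, only 2 of the 10 passed the filter on low counts. Most were thus tested through the NOD.H-2b mice alone, which largely sets the direction of a call, and these counts are a description. Cd3e, a chain of the T cell receptor complex, had 8, 7 and 0 reads in BALB/c at 2M and 83, 337 and 220 in NOD.H-2b. Cd5, which tunes signals of that receptor, was 84.0-fold higher at 6M, from BALB/c values of only 0 to 0.128 CPM. The 10 B cell markers summed to 0.705 to 4.07 CPM in BALB/c and to 5.37 to 40.0 at 2M and 264.8 to 534.1 at 6M in NOD.H-2b. Cd79a, a chain of the B cell receptor complex, was 76.5-fold higher at 6M. The 8 natural killer cell markers summed to 0.30 to 3.92 CPM in BALB/c against 6.97 to 19.5 in NOD.H-2b, and the 10 macrophage markers to 71.4 to 176.0 and 246.3 to 480.4. Prf1, the pore protein of cytotoxic cells, was 15.6-fold higher at 6M, from only 11, 2 and 4 reads in BALB/c. Among the BALB/c mice of 2M and 4M, 4 of the 10 B cell and 1 of the 8 natural killer cell markers passed the filter. The values of these 2 lists are thus a description, as for the T cell markers. The macrophage gene Lyz2, a lysozyme, was 6.42-fold higher at 6M. Of 10 epithelial genes, 1, the secreted carbonic anhydrase Car6, was called lower at each age and 0 were called higher. The log2 fold change was below 0 for 4 of the 10 at 2M, 8 at 4M and 9 at 6M, with list medians of 0.216, -0.0881 and -0.374. Their sum at 6M was 73337 to 85851 CPM in BALB/c against 45746 to 56053 in NOD.H-2b, and 95.5% to 97.4% of the sum in any mouse was Scgb2b7, a secretoglobin. In the test of strain by age, the signed log2 fold change was lower at 6M than at 2M for 6 of the 10 and higher for 0. It was higher for 3 of 8 endothelial markers. Over all genes it was lower for 9.09% and higher for 7.04%. Klra8, a receptor of a family whose gene copies differ between inbred strains, had no read in any BALB/c mouse. Endothelial markers were called higher for 1, 1 and 2 of 8 at the 3 ages, and plasma cell markers for 2, 5 and 3 of 8. Over all genes, 12%, 15.6% and 18.8% were called higher. The median log2 fold changes were -0.0724, -0.141 and 0.163 for the endothelial list, and 1.24, 1.35 and 0.904 for the plasma cell list. The part of these cells in the level of the GTPases was not tested.

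Within groups the order of mice was in part the same for cells and GTPases. Among the NOD.H-2b mice of 2M, replicate 2 had the most T cell marker CPM (34.3) and replicate 1 the least (9.42), as for the GTPases. At 4M, replicates 2 and 3 had nearly the same T cell sum (72.2 and 72.0 CPM) and GTPase sums of 140.3 and 222.3 CPM. At 6M, replicate 2 was lowest in both sums (80.8 and 165.6 CPM), and the other two mice were in opposite order. BALB/c replicate 3 of 4M stood apart from its group, with a T cell sum of 6.26 CPM against 1.51 and 0.996, a natural killer cell sum of 3.92 against 0.977 and 0.772, and the highest value of 9 of the 10 GTPases. Without this mouse, 10 of 10 GTPases were still called higher in NOD.H-2b at 4M.

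**Figure D5:**
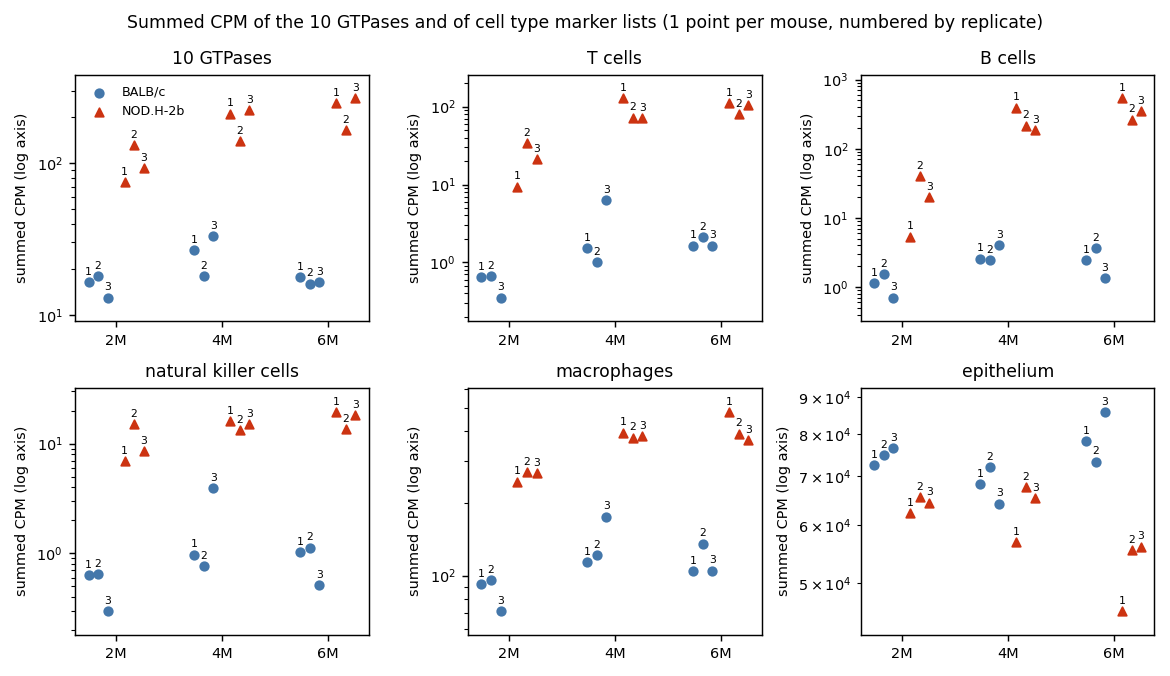
Summed CPM (log axis) of the 10 GTPases and of 5 lists of cell type markers against age, with 1 point per mouse numbered by replicate (circles BALB/c, triangles NOD.H-2b). The GTPase, T cell, B cell, natural killer cell and macrophage sums of NOD.H-2b lie above those of BALB/c at each age, and the epithelial sums, of which Scgb2b7 makes up at least 95.5%, lie lower in NOD.H-2b at 2M and 6M.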

How the data were processed

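Each of 18 libraries was made from the total RNA of 1 LG after removal of ribosomal RNA, and was read as pairs of 75 bases. After trimming (cutadapt) and alignment to GRCm38 (STAR), the authors deposited raw HTSeq counts for 54232 Ensembl genes. Strand setting, annotation release and handling of multiply matching reads are not given in the sources used here. The second deposited table, log2 values made from these counts, was not used. Reads that match near-identical genes equally well can therefore be missing from such genes or split between them.

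Counts were analysed in R 4.3.3 with edgeR 4.0.16 (TMM, filterByExpr, robust quasi-likelihood test, Benjamini-Hochberg over all genes tested), separately for the 6 mice of each comparison, or in 1 fit of all 18 mice for the change of the strain difference. Standard errors were the log2 fold change over the root of F, and confidence intervals are at 95%. DESeq2 1.42.0 (Wald test), other normalizations and filters, glmTreat in edgeR, a replicate block and leaving out each mouse were alternatives. CPM used TMM library sizes, and lengths are the joined exons of GENCODE M21 (GRCm38). For deviations, 0.1 was added to CPM before log2. Named genes were the 10 members, their tested relatives, Ifng and Irf1, the 2 genes of each other list that changed most on average among those called at every age in 1 direction (of these, Cd3d, Cd22, Fcgr1, Igha and Jchain were called at every age and enter the text through the counts of their lists only), and the 5 genes most like the members. One gene under this rule is not reported here. Cd3e and Tgtp2 fall under no such rule and were picked after their values were seen. The members and lists were chosen with earlier results of these data known. On simulated data the strain test recovered all of 200 changed genes. These had changes of a single size, up or down, a minimum mean count and a fixed spread. The simulation therefore says nothing on smaller changes, genes with few reads or the spread of these mice. Averaged over genes, the spread between mice of a group exceeded counting error (chi-square per gene 16.4 to 83.4), and for genes with few reads, such as Ifng and, in BALB/c, Tgtp1, depth limits the precision as well. Replicate numbers were not used to pair the mice in the main tests.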

Additional observations from a re-analysis of the deposited data

Results flagged for a closer look

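The strain difference changed with age for 2 of the GTPases by the test of the difference itself (edgeR's quasi-likelihood test of strain by age in all 18 mice). Gbp9 was further apart at 6M than at 2M by 1.54 on the log2 scale (SE 0.41, adjusted p = 0.0237), and under 25 alternatives the value stayed between 1.35 and 1.80, with 17 of the 25 called. Tgtp1 was further apart by 2.28 (SE 0.70, adjusted p = 0.0352), and under 24 alternatives the value stayed between 1.98 and 2.70, with 15 of the 24 called. Tgtp1 shares 77.2% of its read-length windows with other genes, and its BALB/c values rest on few reads. In the same test, 0 of 10 T cell markers and 1 of 10 B cell markers were called with a higher signed strain difference at 6M than at 2M, where 7.04% of all genes were. Their median gains were 0.282 and 3.08 on the log2 scale, and that of the 10 GTPases was 1.08. Standard errors of the B cell genes ran from 0.543 to 6.44, so a p that misses the threshold does not show that they stayed equal. The part of these cells in either value was not tested.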

How the results depend on the processing

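All 417 fold changes between the strains that the alternatives gave for the 10 GTPases stayed above 3.11-fold and kept their call (highest adjusted p 0.0139), and the count of 10 became 9 at each age only where 10 counts were required in every mouse, which removed Tgtp1. The 2 other normalizations changed no count of members, and no member's strain difference, at an age or between 2M and 6M, changed direction. Between ages within a strain, where 545 values were recomputed, the sign changed in 6 for Tgtp1 in BALB/c from 2M to 4M (lowest -0.40), in 1 for Gbp9 in BALB/c from 4M to 6M (0.10, without BALB/c replicate 3 of 4M) and in 6 over 4 genes between 4M and 6M in NOD.H-2b (lowest -0.19), and none of these was a call. For BALB/c from 2M to 4M, 1 member became 2 without a filter on low counts and by DESeq2's Wald test, and 0 with the replicate block, by glmTreat against 2-fold and in 1 fit of all 18 mice. For NOD.H-2b from 2M to 4M, 2 members became 1 without a filter, 0 with the replicate block and by glmTreat, and 4 in the fit of 18 mice. For strain by age, 2 members became 1 without a filter, with 10 counts in every mouse and with the replicate block, and 7 by DESeq2's Wald test. The cause of these changes was not tested, apart from the genes that a filter removes. Leaving out 1 mouse at a time gave 0 to 5 members for BALB/c from 2M to 4M, 0 to 6 for NOD.H-2b from 2M to 4M, 0 to 5 for strain by age, and no change in the other counts, including the 0 members called lower from 4M to 6M in BALB/c. With 3 mice a group, the counts between ages therefore depend on single animals. Of 195 counts for the other lists, 15 moved by over 1.5 times, mostly where 10 counts were required in every mouse, which removes genes that are absent from BALB/c. The deviations of same-numbered mice had an r over 0.1 in 3 of 21 pairs (-0.339 to 0.344). With 3 mice a group, these values cannot settle whether same-numbered mice belong together. The replicate block was therefore an alternative only, and it changed no other call of a count.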
